A study of Mus musculus with 16 samples.

Results

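The 10 genes followed here mark the resident macrophage of the mouse air space, the alveolar macrophage, and were measured in whole-lung RNA. They are Ear1, Ear2, Chil3 (named Chi3l3 on the array, the gene of Ym1), Marco, Mrc1, Siglec1, Itgax, Pparg, Krt79 and Car4. They were found on the array by gene name, from a set drawn up with earlier results of these data known, and are 10 of the 25678 genes measured. The samples were lungs of female mice, 1 array each. ARF-DTR mice carry a transgene in which the promoter of Arf, a tumour suppressor made from the Cdkn2a locus and active in some senescent cells, drives a receptor for diphtheria toxin (DT), so that the toxin can kill the cells that use this promoter. Of the ARF-DTR lungs, 4 came from mice of 12 months given DT, 4 from ARF-DTR mice of 12 months given phosphate-buffered saline (PBS), and 4 from uninjected ARF-DTR mice of 2 months. Wild type mice of 12 months gave 2 lungs with DT and 2 with PBS, to measure what DT does without the transgene. Injections into the abdomen ran for 1 month at an interval of 2 weeks, with 50 microgram of DT per kg body weight. No group holds young wild type mice, uninjected old mice or sorted macrophages.

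Alveolar macrophages settle in the lung around birth and then renew themselves there. Granulocyte-macrophage colony-stimulating factor (GM-CSF, gene Csf2), which alveolar type 2 cells make, acts on them through a receptor built from Csf2ra and Csf2rb and switches on the transcription factor PPAR gamma (Pparg), on which their identity and their clearing of surfactant lipid rest. They carry CD11c (Itgax), the scavenger receptor Marco, the mannose receptor CD206 (Mrc1) and the sialic acid-binding receptor CD169 (Siglec1), and secrete the chitinase-like protein Ym1 and, in the mouse, ribonucleases of the Ear family. Car4 and Krt79 appear in mouse alveolar macrophage profiles too, although Car4, a membrane carbonic anhydrase, is also a marker of a lung capillary endothelial cell, the aerocyte.

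The arrays were Agilent 60-base oligonucleotide arrays read in 1 colour, and their number limits the precision. A level is the log2 of the processed signal minus the 75th percentile of its array, so 0 is that percentile and a difference of 1 is a 2-fold change. Levels of different genes come from different probes and are not set against each other. All 10 members were well above background on all 16 arrays, and no member value was imputed. Between 55.6% and 66.9% of probes were well above background per array, and the 75th percentile of signal lay between 613 and 1088. Lung epithelial markers were high in every group, with group means of 8.75 to 9.25 for Sftpc and 5.26 to 5.60 for Ager. The 16 arrays lay on 2 slides, with the 2-month and the PBS-treated ARF-DTR lungs on slide 1 and the DT-treated ARF-DTR lungs and all wild type lungs on slide 2. In ARF-DTR mice the comparison of DT with PBS therefore crosses slides, so that slide and treatment cannot be told apart. The comparison by age lies within slide 1, and those between the wild type groups, or of DT-treated ARF-DTR with either of them, within slide 2. On slide 1 the 2-month lungs lay in row 1 and the PBS-treated ARF-DTR lungs in row 2. On slide 2 the DT-treated ARF-DTR lungs lay in row 1 and all wild type lungs in row 2. Within a slide only the wild type groups shared a row, in different columns. In the other comparisons within a slide, row and group cannot be told apart. The labels do not say that samples of a group came from separate mice, so p-values speak only of spread among the arrays at hand, and part of that can be technical. In whole-lung RNA, fewer macrophages and less RNA per macrophage cannot be told apart.

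Ear1 and Ear2 are near copies, which bears on how their signals are read. The probe of Ear1 lay in mm9 at chr14:44396709-44396768 on the minus strand, and that of Ear2 at chr14:44681119-44681178 on the plus strand. The probe that the array assigns to Ear12, another ribonuclease of the family, lay at chr14:44680899-44680958, with 160 bases between it and the Ear2 probe, and whether both read 1 transcript was not tested. The longest run shared by the Ear1 and Ear12 probes, 19 bases, is in capitals in both probe sequences.
Ear1 probe: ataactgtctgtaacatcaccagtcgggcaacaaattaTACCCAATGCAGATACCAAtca
Ear12 probe: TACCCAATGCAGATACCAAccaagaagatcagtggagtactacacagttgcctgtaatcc
With the Ear7 probe the Ear1 probe shared a longer run, of 20 bases, and with that of Ear4 a run of 15. The Ear1 and Ear2 probes shared no run of more than 5 bases, while the Ear2 probe shared 23 bases with that of Ear6. The 250 bases before the start of each gene (RefSeq, GRCm38.p6; chr14:43819640-43819889, minus strand, for Ear1 and chr14:44102404-44102653, plus strand, for Ear2) are shown because both members moved together. They were the same at 246 of 248 aligned bases (99.2%), and capitals mark bases that differ or have no partner in the other sequence.
Ear1 upstream: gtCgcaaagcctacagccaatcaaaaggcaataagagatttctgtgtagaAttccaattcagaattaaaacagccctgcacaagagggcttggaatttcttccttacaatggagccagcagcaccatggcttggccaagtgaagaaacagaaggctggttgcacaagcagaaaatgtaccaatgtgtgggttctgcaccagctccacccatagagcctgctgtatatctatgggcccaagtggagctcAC
Ear2 upstream: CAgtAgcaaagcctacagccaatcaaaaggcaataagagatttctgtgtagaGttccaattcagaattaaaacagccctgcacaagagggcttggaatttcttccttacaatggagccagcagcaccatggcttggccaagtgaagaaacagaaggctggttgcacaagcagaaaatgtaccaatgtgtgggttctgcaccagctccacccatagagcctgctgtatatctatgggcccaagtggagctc
The same window of Chil3 and its neighbour gene Chil4 was 91.0% identical. Of the members, 9 had entries in the promoter table (250 bases before to 50 after each start), with 11 promoters. The core motif of the macrophage factor PU.1, GAGGAA, searched on both strands, was present in 3 of these 11 promoters (of Marco, Mrc1 and Pparg), against 28.3% of all 32851 promoters in the table. The interferon-stimulated response element was present in 0 of the 11 member promoters, against 3.44% of all promoters.

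DT against PBS at 12 months asks what changed in ARF-DTR lungs after the toxin. In DT-treated ARF-DTR lungs 8 of the 10 identity genes were higher than in PBS-treated ARF-DTR lungs and passed the test (limma, adjusted p under 0.05 over all genes), by 1.26- to 1.83-fold, and 0 were lower. In this comparison 15.7% of all genes passed as higher and 29.2% passed in either direction. The members' median difference was 0.69 (log2), against 0.00 over all genes tested. The 2 members that did not pass were Marco and Car4, the latter by its brighter probe, while its second probe passed as lower. The groups did not overlap for 5 members (Ear1, Ear2, Siglec1, Itgax and Krt79), as they did not, in the higher direction, for 15.7% of all genes. Of the genes that passed, 53.8% were higher, and this share was 83.1% with arrays scaled to their median and 74.2% with normexp background correction. Median scaling moved the median of all genes to 0.18 and that of the members to 0.86. With quantile normalization the number passing was 5, without Chil3, Itgax and Pparg.

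**Figure D1:**
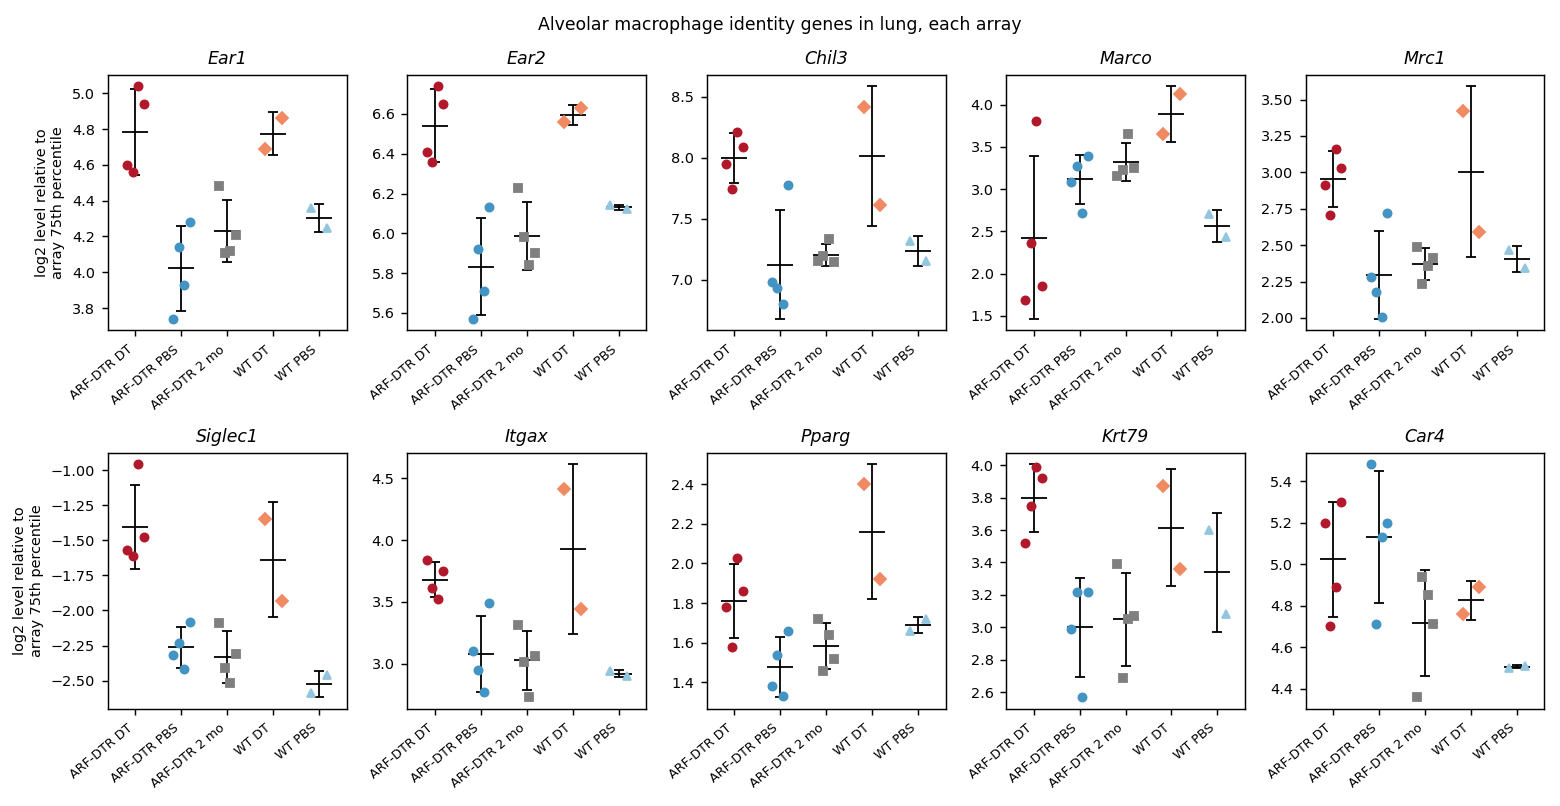
Log2 level (relative to the 75th percentile of the array) of the 10 identity genes on each array, by group; all groups but the one marked 2 mo are of 12 months. Points are arrays (4 per ARF-DTR group, 2 per wild type group), bars the mean and SD. For Ear1, Ear2, Siglec1, Itgax and Krt79 the 4 DT-treated ARF-DTR lungs lie above all 4 PBS-treated ARF-DTR lungs, while for Marco 3 of them lie below all of those.

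Among the secreted products, Ear1 had levels of 4.6, 4.56, 5.04 and 4.94 in DT-treated ARF-DTR lungs, against 3.74, 4.14, 3.93 and 4.28 in PBS-treated ones. Every DT-treated lung was above every PBS-treated lung, and the difference was 0.76 ± 0.14 (SE; adjusted p = 0.00188, limma). Ear2 had 6.41, 6.36, 6.74 and 6.65 with DT, against 5.57, 5.92, 5.71 and 6.13 with PBS. These groups did not overlap either, and Ear2 was higher by 0.71 ± 0.13 (adjusted p = 0.00172, limma). Chil3, a lectin that forms crystals in some inflamed mouse lungs, had 7.95, 7.74, 8.21 and 8.09 with DT, against 6.98, 6.93, 6.80 and 7.78 with PBS. PBS-treated lung 4 reached into the range of the DT-treated lungs, and the other 3 were below every DT-treated lung. The difference was 0.88 ± 0.21 (adjusted p = 0.00798, limma), 1.83-fold.

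Among the receptors, Siglec1 and Mrc1 passed and Marco did not. Siglec1 binds sialylated surfaces such as those of viruses and other cells. It had levels of -1.57, -1.61, -0.96 and -1.48 with DT, against -2.32, -2.23, -2.42 and -2.08 with PBS, with no overlap, and it was higher by 0.86 ± 0.16 (adjusted p = 0.00206, limma). A second array probe of Siglec1 was well above background on 0 of 16 arrays, so only 1 probe measured it. Mrc1, an endocytic receptor for mannose-bearing glycoproteins, had 2.91, 2.71, 3.16 and 3.03 with DT, against 2.28, 2.18, 2.01 and 2.72 with PBS. Again PBS-treated lung 4 was the one inside the range of the DT-treated lungs, and the difference was 0.66 ± 0.18 (adjusted p = 0.0146, limma).

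Marco, a scavenger receptor for bacteria and inhaled particles, had levels of 1.69, 2.36, 3.8 and 1.85 in DT-treated ARF-DTR lungs, against 3.08, 3.27, 2.72 and 3.39 in PBS-treated ones. It was measured by 1 probe, placed in mm9 over only 20 bases (chr1:122371115-122371134), while probes of the other members spanned 60. What this placement means for its signal was not tested. Of the DT-treated lungs, 3 were below every PBS-treated lung and lung 3 was above them all. The SD of Marco in the DT-treated ARF-DTR lungs was 0.96, against 0.29 in the PBS-treated ones. The difference was -0.69 ± 0.36 (95% interval -1.46 to 0.08, adjusted p = 0.162, limma), and without DT-treated lung 3 it was -1.15 with an adjusted p of 0.00338. Lung 3 was the 1 DT-treated lung where Marco was high, so leaving it out selects on the outcome. The p-value without it is therefore no test of Marco. In no other fit without 1 array did Marco pass as lower. On DT-treated lung 3 Ear1, Ear2, Chil3, Mrc1, Siglec1, Pparg and Krt79 also had their highest level of the group. Over all 5 groups the within-group SD of Marco was 0.55, against 0.17 to 0.31 for the other members and a median of 0.15 over all genes.

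Itgax, the integrin chain CD11c that macrophages share with dendritic cells, had 3.84, 3.61, 3.52 and 3.75 with DT, against 3.10, 2.95, 2.77 and 3.49 with PBS in ARF-DTR lungs. The groups did not overlap, by a gap between 3.49 and 3.52. The difference was 0.60 ± 0.20 (adjusted p = 0.0359, limma), and the call held in 1 of the 8 fits that left out an array, the one without PBS-treated lung 4 (adjusted p = 0.0168). Pparg had 1.78, 1.58, 2.03 and 1.86 with DT, against 1.38, 1.54, 1.33 and 1.66 with PBS. The groups overlapped, and its difference of 0.34 ± 0.12 had an adjusted p of 0.0495 (limma), which was lost in 6 of 8 fits without 1 array, all but those without PBS-treated lung 4 or DT-treated lung 2, with a highest adjusted p of 0.142. Krt79, a type II keratin, had 3.52, 3.75, 3.99 and 3.92 with DT, against 2.99, 3.22, 2.57 and 3.22 with PBS. It was higher by 0.80 ± 0.19 (adjusted p = 0.00884, limma) with no overlap. Of 8 measured epithelial keratin and squamous genes, Sprr1a passed as higher (1.95) and 0 passed as lower.

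**Figure D2:**
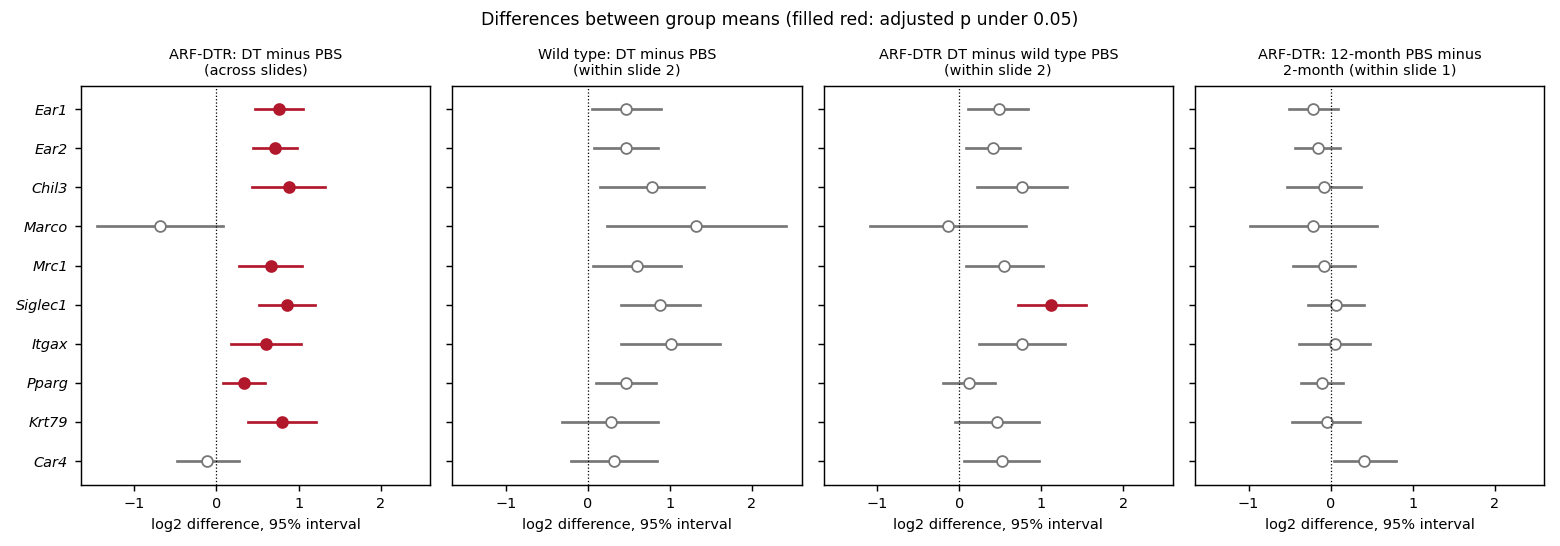
Log2 differences between group means of the 10 identity genes with 95% intervals, in 4 comparisons; filled red points passed an adjusted p under 0.05 (limma, 16 arrays in 1 fit). In all, 8 members passed for DT against PBS in ARF-DTR lungs (across slides), 0 in wild type lungs, where all 10 differences were above 0 (Car4 by its brighter probe), 1 (Siglec1) for DT-treated ARF-DTR against PBS-treated wild type lungs, and 0 by age. Comparisons share arrays where they share a group.

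DT against PBS in wild type lungs measures the toxin without the transgene and lies within slide 2. In DT-treated wild type lungs all 10 members had higher means than in PBS-treated wild type lungs (Car4 only by its brighter probe; the second differed by -0.23), with a median difference of 0.54 against -0.02 over all genes, but with 2 arrays a group 0 of 10 passed (limma, lowest adjusted p 0.129). Of all genes, 0.179% passed, and 0.0584% passed as higher. At an unadjusted p under 0.05 there were 8 members. The share of all genes at that limit was not worked out, in this or the other comparisons, so such counts have no reference. For 9 of 10 members both DT-treated lungs were above both PBS-treated ones, as were 18.8% of all genes; Krt79 was the exception.

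Siglec1 had -1.35 and -1.93 in DT-treated wild type lungs, against -2.59 and -2.46 in PBS-treated ones (difference 0.88, 95% interval 0.40 to 1.37, adjusted p = 0.129, limma). Itgax had 4.41 and 3.44 with DT, against 2.94 and 2.90 with PBS (difference 1.01, interval 0.40 to 1.61, adjusted p = 0.16). The 2 DT-treated wild type lungs were far apart for several members, and lung 1 was the higher of them for Chil3, Mrc1, Siglec1, Itgax, Pparg and Krt79. Chil3 had 8.42 and 7.61 with DT, against 7.32 and 7.15 with PBS (difference 0.78, interval 0.15 to 1.41). Mrc1 had 3.42 and 2.59 with DT, against 2.47 and 2.34 with PBS (difference 0.60, interval 0.06 to 1.14). Ear1 and Ear2, the ribonucleases, did not show that spread. Ear1 had 4.69 and 4.86 with DT, against 4.36 and 4.25 with PBS, a difference of 0.47 (interval 0.05 to 0.89). Ear2 had 6.56 and 6.63 with DT, against 6.14 and 6.12 with PBS, also a difference of 0.47 (interval 0.08 to 0.85). Pparg had 2.40 and 1.92 with DT, against 1.66 and 1.72 with PBS (difference 0.46, interval 0.10 to 0.83), and Krt79 had 3.87 and 3.36 with DT, against 3.60 and 3.08 with PBS (difference 0.28, interval -0.31 to 0.86). Without DT-treated wild type lung 2 the difference was 1.49 for Itgax and 1.17 for Siglec1. Lung 2 was the lower for both genes, so leaving it out selects on the outcome and is no test of them. The members' median difference was 0.86 without lung 2 and 0.44 without lung 1. In the fits without lung 1 or 2 the remaining array was assumed to vary like the other groups.

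Marco was high in the DT-treated wild type lungs, at 3.65 and 4.12, against 2.70 and 2.43 in the PBS-treated ones, the largest difference among the members (1.32, interval 0.23 to 2.41, adjusted p = 0.291, limma). Both values were above those of 3 of the 4 DT-treated ARF-DTR lungs. The DT effect in ARF-DTR minus that in wild type was -2.01 for Marco (interval -3.35 to -0.67), with an adjusted p of 0.0992 over all genes (limma). With normexp background correction it was -1.99, past the threshold. Without DT-treated ARF-DTR lung 3, an exclusion that selects on the outcome, it was -2.47 (adjusted p = 0.00519, limma). In no other fit without 1 array did it pass. Of all genes, 2.11% passed this interaction test, and 0 of the 10 members did, with Marco the 1 member at an unadjusted p under 0.05. The members' median interaction was 0.02, and the interval was -0.22 to 0.81 for Ear1, -0.68 to 0.87 for Chil3, -0.62 to 0.57 for Siglec1 and -0.20 to 1.24 for Krt79. The interaction also contains the slide difference between the 2 ARF-DTR groups.

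**Figure D3:**
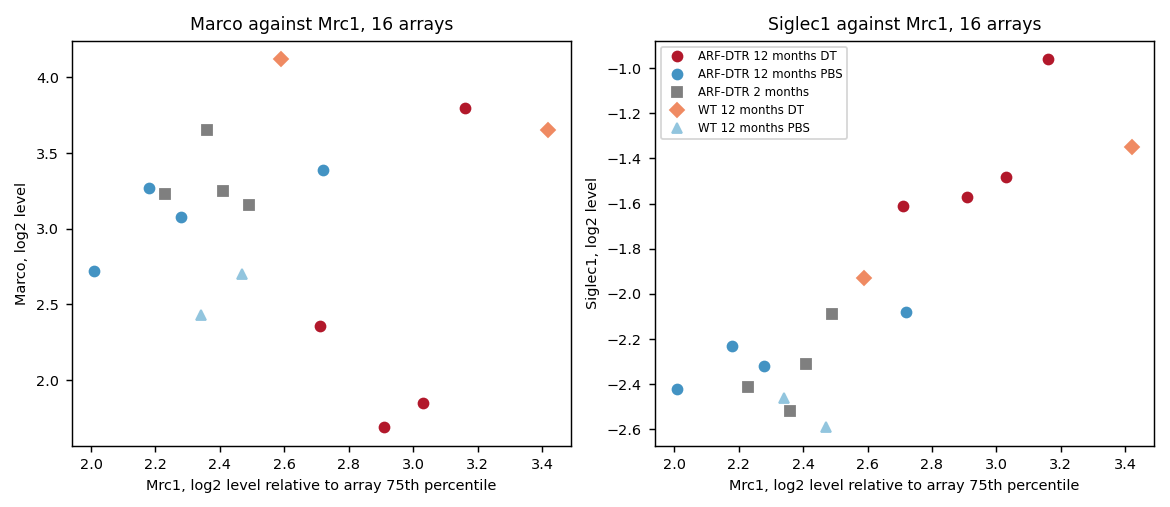
Marco (left) and Siglec1 (right) against Mrc1, as log2 levels relative to the 75th percentile of the array; each point is 1 of 16 arrays, and symbols mark the 5 groups. In it, 3 DT-treated ARF-DTR lungs combine Mrc1 levels of 2.71 to 3.03 with Marco levels of 1.69 to 2.36, the lowest Marco levels of all arrays, and the fourth has 3.16 and 3.8. Siglec1 in the 4 DT-treated ARF-DTR lungs lies between -1.61 and -0.96.

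Both genotypes after DT can be compared within slide 2, where they lay in different rows. Ear1 averaged 4.78 ± 0.24 in the ARF-DTR lungs (SD, n = 4) and 4.78 ± 0.12 in the wild type lungs (SD, n = 2), and Chil3 averaged 8.0 ± 0.20 in the ARF-DTR lungs and 8.01 ± 0.57 in the wild type lungs. The median difference of the 10 members was -0.03 and 0 passed (limma), while 0.927% of all genes did. At an unadjusted p under 0.05 there were 2 members, Marco and Pparg. Marco averaged 2.43 ± 0.96 in the ARF-DTR lungs and 3.88 ± 0.34 in the wild type lungs, a difference of -1.46 (interval -2.40 to -0.51, adjusted p = 0.129). Without DT-treated ARF-DTR lung 3, an exclusion that selects on the outcome, it was -1.91 (adjusted p = 0.0068, limma). In no other fit without 1 array did Marco pass. Pparg, at 1.81 ± 0.18 in ARF-DTR and 2.16 ± 0.34 in wild type lungs, differed by -0.35 (interval -0.66 to -0.03, adjusted p = 0.272). For Ear1 the interval of the difference was -0.36 to 0.37 and for Ear2 -0.39 to 0.28.

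DT-treated ARF-DTR lungs against PBS-treated wild type lungs, also within slide 2, differ in genotype, treatment and row on the slide. Of the members, 9 had a positive difference, the median was 0.50, and for 7 members (Ear1, Ear2, Chil3, Mrc1, Siglec1, Itgax and Car4) the groups did not overlap, as they did not, in the higher direction, for 16% of all genes. Car4 counts here only by its brighter probe. On its second probe it passed as lower by -0.47 (adjusted p = 0.00907, limma), also with no overlap. Siglec1 passed as higher by 1.12 (interval 0.71 to 1.54, adjusted p = 0.00948, limma), with -1.57, -1.61, -0.96 and -1.48 in the ARF-DTR lungs against -2.59 and -2.46 in the wild type lungs. Of all genes, 2.14% passed as higher. The call on Siglec1 was lost without PBS-treated wild type lung 1 (adjusted p = 0.0821) and with only these groups in the fit (0.0572), where Itgax passed instead. Of the other members, Itgax differed by 0.76 (interval 0.24 to 1.29), Chil3 by 0.76 (0.22 to 1.31), Mrc1 by 0.55 (0.08 to 1.02), Ear1 by 0.48 (0.11 to 0.84) and Marco by -0.14 (-1.09 to 0.81).

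Age was compared within slide 1, in ARF-DTR lungs of 12 months with PBS against 2 months without injection, so age, injection and row on the slide go together. With Car4 read by its brighter probe, none of the 10 members passed (limma, lowest adjusted p 0.194 for Car4), against 6.11% of all genes, and 1 (Car4) had an unadjusted p under 0.05. The members' median difference was -0.08, against -0.02 over all genes. For no member were the groups apart, against 13% of all genes. On its second probe Car4 passed as lower by -0.25 (adjusted p = 0.037, limma), with the groups apart. Ear1 had 3.74, 4.14, 3.93 and 4.28 at 12 months, against 4.48, 4.11, 4.12 and 4.21 at 2 months, a difference of -0.21 (interval -0.51 to 0.09). Chil3 lay between 6.80 and 7.78 at 12 months and between 7.14 and 7.33 at 2 months, a difference of -0.08 (interval -0.53 to 0.37). The intervals reached 0.15 or less above 0 for Ear1, Ear2 and Pparg, and 0.57 for Marco. At 2 months Marco had 3.16, 3.23, 3.65 and 3.25, above 3 of the 4 DT-treated 12-month lungs.

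DT-treated 12-month against 2-month ARF-DTR lungs share the DT arrays with the comparison with PBS and also cross slides. There were 7 members that passed as higher (limma): Ear1, Ear2, Chil3, Mrc1, Siglec1, Itgax and Krt79, by 0.55 to 0.93, while 14.7% of all genes did. Their groups did not overlap, against 14.6% of all genes in the higher direction. Pparg (0.23, interval -0.03 to 0.49) and Car4 by its brighter probe (0.31, interval -0.06 to 0.68) did not pass. On its second probe Car4 passed as lower by -0.61 (adjusted p = 3.84e-05, limma). Marco had a difference of -0.90 (interval -1.67 to -0.13, adjusted p = 0.0742). Without DT-treated lung 3, an exclusion that selects on the outcome, it was -1.35 (adjusted p = 0.000797, limma). In no other fit without 1 array did Marco pass as lower. In this comparison Mrc1 lost its call in fits without 2-month lung 2 or DT-treated lung 3 or 4, with a highest adjusted p of 0.0717, and Itgax in 4 of 8 fits (without 2-month lung 2 or 3, or DT-treated lung 1 or 4, highest 0.0684).

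ARF-DTR against wild type with PBS crosses slides. Of the 10 members, 9 did not pass, and Car4 was higher by 0.62 (interval 0.17 to 1.08, adjusted p = 0.0483, limma), with 5.48, 4.71, 5.13 and 5.20 in ARF-DTR lungs against 4.5 and 4.51 in wild type lungs; 10.9% of all genes passed as higher. That call was lost in 5 of the 6 fits without 1 array, all but the one without ARF-DTR lung 2, and under median scaling, without the filter on dim probes and with the mean of both probes. The second Car4 probe differed by -0.11 here and did not pass. The members' median difference was -0.11. Marco averaged 3.12 ± 0.29 in ARF-DTR lungs (SD, n = 4) and 2.56 ± 0.19 in wild type lungs (SD, n = 2), a difference of 0.55 (interval -0.39 to 1.5). In the order of group means, Ear1, Ear2, Chil3 and Mrc1 ran from PBS-treated ARF-DTR over 2-month ARF-DTR and PBS-treated wild type to both DT-treated groups, and of neighbouring groups only PBS-treated wild type and DT-treated ARF-DTR were apart. Marco had the opposite place for the DT-treated ARF-DTR lungs, which were lowest, with the DT-treated wild type lungs highest.

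Car4 was measured by 2 probes that did not give the same picture. The brighter, which stands for the gene by rule, lay in mm9 at chr11:84779487-84779546 and the second at chr11:84777667-84777726, both on the plus strand. The second is shown because its reading went the other way.
Car4 second probe: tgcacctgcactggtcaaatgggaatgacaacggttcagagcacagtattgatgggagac
The brighter probe had 5.20, 4.70, 4.89 and 5.30 in DT-treated ARF-DTR lungs, against 5.48, 4.71, 5.13 and 5.20 in PBS-treated ones, and 4.36, 4.94, 4.85 and 4.71 at 2 months. The groups overlapped and the difference for DT was -0.11 (interval -0.48 to 0.27, adjusted p = 0.675, limma). The second probe had 2.56, 2.57, 2.49 and 2.61 with DT, against 2.91, 3.01, 2.87 and 2.86 with PBS, and 3.07, 3.29, 3.16 and 3.13 at 2 months. On it Car4 was lower with DT by -0.35 ± 0.06 (adjusted p = 0.002), and lower at 12 months with PBS than at 2 months by -0.25 ± 0.06 (adjusted p = 0.037), with no overlap between groups. In wild type lungs the second probe had 2.71 and 2.88 with DT, against 3.09 and 2.95 with PBS, a difference of -0.23 (interval -0.43 to -0.03, adjusted p = 0.311). Within groups the correlation of the probes over 16 arrays was 0.22.

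**Figure D4:**
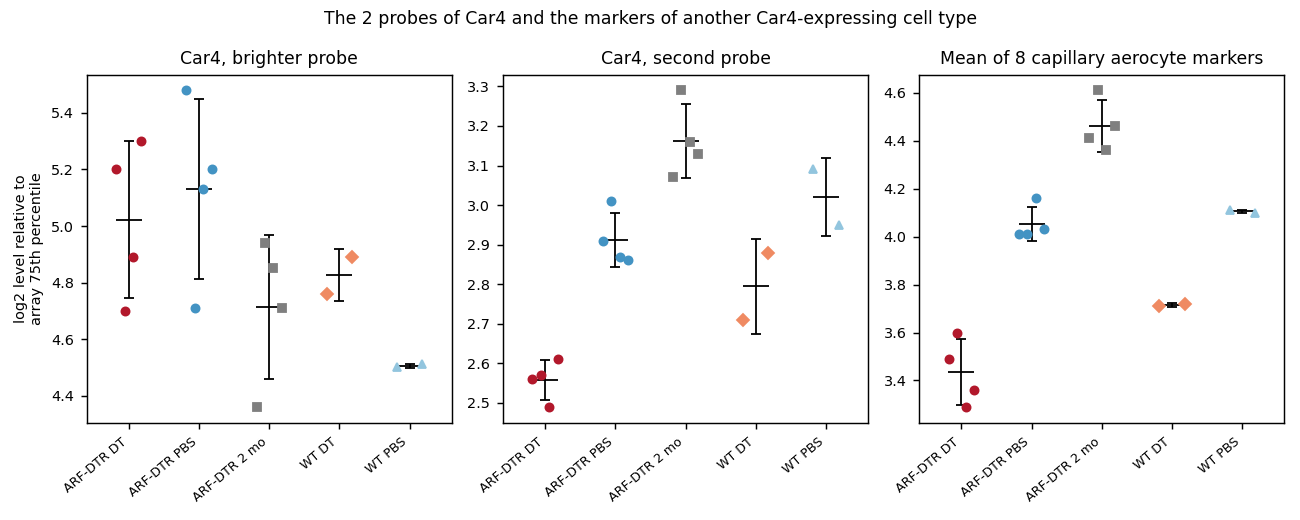
Log2 levels (relative to the 75th percentile of the array) of both Car4 probes and the mean log2 level of 8 other capillary aerocyte markers, on each array; bars are mean and SD, and all groups but the one marked 2 mo are of 12 months. The second probe and the aerocyte markers are lowest in the DT-treated ARF-DTR lungs (group means 2.56 and 3.44) and highest at 2 months (3.16 and 4.46); the brighter probe is highest in the PBS-treated ARF-DTR lungs (5.13).

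Markers of the aerocyte were read beside Car4. The second Car4 probe went the same way as most of them, and the brighter probe did not. Of 8 other aerocyte markers, 6 passed as lower and 0 as higher for DT against PBS in ARF-DTR lungs, among them the endothelin receptor Ednrb (-1.27), Fibin (-1.20), the VEGF receptor Kdr (-0.62) and the peptide Apln (-0.53). For DT against PBS 29.2% of all genes passed in either direction, and 15.7% passed as higher. By age 5 of the 8 passed as lower, and 6.11% of all genes passed in either direction. The mean level of these 8 markers ranged from 3.29 to 3.60 over the DT-treated ARF-DTR lungs, against 4.01 to 4.16 with PBS, and it was 4.36 to 4.61 at 2 months. With no transgene it was 3.71 and 3.72 with DT, against 4.11 and 4.10 with PBS. The part of aerocytes in the Car4 readings was not tested.

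Among themselves the members were compared after the mean of each group was taken off every array, which leaves differences between lungs of a group. Over the 45 pairs Pearson's r across the 16 arrays ran from -0.42 to 0.95 with a median of 0.49; arrays share slides, and the values are a description. The tightest pairs were Ear1 with Ear2 (0.95), Chil3 with Mrc1 (0.93) and Mrc1 with Pparg (0.89). The 28 pairs without Marco and Car4 were all above 0, from 0.14 to 0.95 with a median of 0.60. Pairs with Marco had a median of 0.30 and those with Car4 a median of -0.25. The ribonucleases tracked Itgax least of these (0.14 for Ear1, 0.31 for Ear2), while Itgax tracked Mrc1 (0.81) and Chil3 (0.70).

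**Figure D5:**
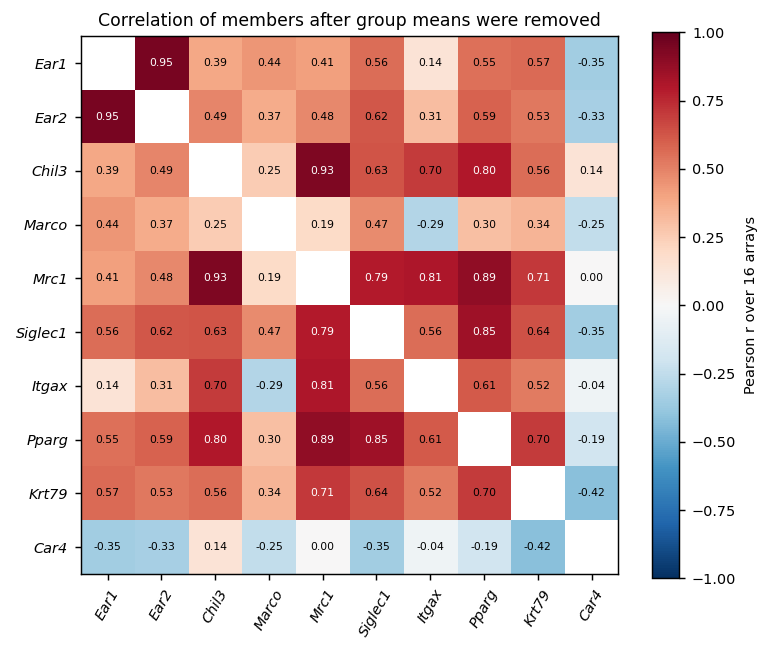
Pearson's r between each pair of the 10 identity genes over 16 arrays, after group means were removed; red is positive and blue negative. The 8 genes other than Marco and Car4 have positive values (0.14 to 0.95), Marco runs from -0.29 to 0.47 with the others, and Car4 (brighter probe) from -0.42 to 0.14.

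The genes whose within-group pattern was most like a member's over the 16 arrays were named by the same r. These genes were picked as the highest among all others, and how high r runs by chance in such a pick was not tested. For Ear1 they were Ear12 (0.963), Ear10 (0.944) and Rnase2a (0.915), and for Ear2 Ear12 (0.977), Rnase2a (0.949) and Ear10 (0.947), all ribonucleases of the same family. Mrc1 was followed most closely by Atp6v0d2 (0.982), a subunit of the vacuolar proton pump, which was also the third for Chil3 (0.935), after the array feature NAP121631-001 (0.970) and Kynu (0.953), the kynureninase gene. Itgax was most like Itgb2 (0.945), the integrin chain that pairs with CD11c on the cell surface. Pparg was most like Gtpbp8 (0.940), Coprs (0.924) and Cd200r1 (0.920), an inhibitory receptor of myeloid cells. Siglec1 was most like Nutf2 (0.918), and Krt79 most like Rmdn2 (0.935). Marco was most like Pmel (0.909), the array feature BB713741 (0.904) and Cdon (0.898), none of which was in the alveolar macrophage lists, and Pmel had its highest level among the DT-treated ARF-DTR lungs on lung 3 (-4.06, against -4.80 to -4.71 on the other 3). The brighter Car4 probe was most like Dock3 (0.985) and Rbp3 (0.969).

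Near relatives of the members were read from lists. For DT against PBS in ARF-DTR lungs 15.7% of all genes passed as higher and 29.2% in either direction, which stands beside the list counts for that comparison. Of 6 other Ear family genes measured above background, 3 passed as higher for DT against PBS in ARF-DTR lungs: Ear10 (0.84), Rnase2a (0.84) and Ear12 (0.76). Ear6 passed as lower (-0.92), with means of -1.60 with DT and -0.69 with PBS. Without the transgene Ear10 differed by 0.54, Rnase2a by 0.53 and Ear12 by 0.58, and 0 of the 6 passed. Of 4 other chitinase-like genes 3 passed as higher: Chil4 (1.11), the acidic mammalian chitinase Chia1 (0.72) and Chil1 (0.66). Cross-hybridisation between copies of a family was not tested, so each of these values may hold signal of its relatives. Eosinophils also make Ear ribonucleases, and of 8 eosinophil markers 1 passed as higher (Siglecf, which alveolar macrophages share) and 1 as lower (Ear6). Their mean level was -2.29 ± 0.13 in DT-treated ARF-DTR lungs and -2.37 ± 0.36 in PBS-treated ones (SD, n = 4 each). Of the defining eosinophil genes, Epx averaged -6.60 ± 1.43 with DT and -6.49 ± 1.90 with PBS (SD, n = 4 each). That is about as low as the Siglec1 probe well above background on 0 of 16 arrays (mean -6.26), so Epx says little about eosinophils. Il5ra averaged -2.35 with DT and -2.13 with PBS, and Prg2 averaged 0.27 with DT and -0.38 with PBS. Ccr3 averaged -1.89 with DT and -2.25 with PBS, and none of these eosinophil genes passed. Against 2 months, where Ear1 and Ear2 were higher with DT as well, Prg2 (2.19) and Prg3 (1.37), both eosinophil granule proteins, passed as higher and Ear6 (-0.84) as lower. The part of eosinophils in the Ear values was not tested.

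A list of 25 further alveolar macrophage genes gave 11 that passed as higher and 0 as lower for DT against PBS in ARF-DTR lungs, with a median difference of 0.44. The largest were coagulation factor F7 (1.20), Atp6v0d2 (0.95), the sialic acid-binding receptor Siglecf (0.85) and the oxidised lipoprotein receptor Olr1 (0.79). Among wild type lungs the list's median was 0.41 with 0 passing, and F7 differed by 0.86, Atp6v0d2 by 1.13, Siglecf by 0.58 and Olr1 by 0.87. By age 3 of the 25 passed as lower, the transcription factor Bhlhe40 (-0.54), Cpne5 (-0.49) and the protease inhibitor Spint1 (-0.31), and 0 as higher. Over all genes 6.11% passed by age in either direction. Of 24 genes of the GM-CSF, M-CSF and TGF-beta signals and factors that build these cells, 9 passed as higher and 1 as lower for DT in ARF-DTR lungs. Csf2 itself was higher by 0.93, with means of -1.06 with DT and -1.99 with PBS, and its receptor chain Csf2rb2 was higher by 0.57. The myeloid factors Cebpa (0.68) and Spi1 (0.53), which encodes PU.1, were higher too. After DT in wild type mice Csf2 differed by 0.21 (interval -0.30 to 0.72), Csf2rb2 by 0.72, Cebpa by 0.06 and Spi1 by 0.18, and none of these passed. By the interaction test, which 2.11% of all genes passed, 0 of the 24 passed as higher and 1, Klf4, as lower.

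Targets of PPAR gamma did not move one way: of 14 measured, 5 passed as higher for DT in ARF-DTR lungs, among them the desaturase Scd1 (0.79), the cholesterol exporter Abcg1 (0.58) and lipoprotein lipase Lpl (0.53), and 2 as lower, of which Pdk4, an inhibitor of pyruvate dehydrogenase, was the larger (-1.03). Of 13 list receptors of the scavenger and lectin kinds, 7 passed as higher and 0 as lower. They included the dectin-type receptors Clec4n (1.44) and Clec7a (0.95), and the scavenger receptor Msr1 (0.65), while Marco's own difference was -0.69. Of 12 genes of alternative activation, 1 passed as higher, the chemokine Ccl17 (0.78).

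Markers of other cell types changed in the same comparison, in which 15.7% of all genes passed as higher and 29.2% in either direction. Of 14 pan-macrophage markers 7 passed as higher and 1 as lower, Lyz2 (0.86) and Aif1 (0.70) the largest, and their mean level was 3.27 ± 0.13 in DT-treated and 2.87 ± 0.08 in PBS-treated ARF-DTR lungs (SD, n = 4 each). Of 14 interstitial macrophage markers 6 passed as higher and 1 as lower, among them Ms4a7 (1.08), C1qb (0.78) and C1qa (0.73), with Cd4 lower (-0.80). Of 11 dendritic cell markers, some of which carry Itgax too, 6 passed as higher, such as Cd207 (0.98) and Clec9a (0.60). All 10 alveolar type 2 markers passed as higher, with a median of 0.61, and 11 of 20 interferon-induced genes did, with a median of 0.66. Lyz2 stands in both the pan-macrophage and the alveolar type 2 list. In wild type lungs the medians were 0.22 for pan-macrophage, 0.08 for interstitial macrophage, 0.40 for dendritic cell, 0.19 for alveolar type 2, 0.06 for interferon-induced and 0.51 for 7 adipocyte genes, against 0.54 for the 10 members. By the interaction test 0 genes of these lists passed, with a median of 0.47 for alveolar type 2 and 0.60 for interferon-induced genes. Neutrophil markers had a median difference of -1.20 in wild type lungs, where their mean level was 2.37 ± 0.75 with DT and 3.32 ± 0.03 with PBS (SD, n = 2 each). The part of these cell types in the members' differences was not tested. Cdkn2a, the locus of the Arf promoter, averaged -1.67 ± 0.41 in DT-treated and -2.02 ± 0.21 in PBS-treated ARF-DTR lungs (SD, n = 4 each), a difference of 0.34 (interval -0.25 to 0.94) that did not pass.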

How the data were processed

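Total RNA of homogenised lungs was labelled with Cy3 and hybridised, 1 sample per array, to 16 Agilent arrays of 1 mouse design. Per the file headers, the deposited scanner files hold intensity values of 1 channel placed on the build mm9, and per the submitters' processing notes they were made with Agilent Feature Extraction 10.10.1.1. The authors' deposited series table holds log2 values, which matched the scanner signals after the scaling given next. Any other step of the authors is not given in the sources used here.

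Sample groups and replicate numbers were taken from the titles. For PBS-treated wild type replicate 1 a free description names DT, whereas title, source name and treatment name PBS and were used. The log2 processed signal, averaged over repeat spots without control spots and outlier flags, was reduced by the 75th percentile of its array. Probes rising well above background on 4 or more of the 16 arrays entered, each gene by its brightest one, for 25678 genes. The tests used limma 3.58.1 (R 4.3.3) with 1 mean per group and all 16 arrays in 1 fit, two-sided, with Benjamini-Hochberg adjustment over all genes and a threshold of 0.05. Values after ± beside a difference are standard errors, and those beside a level are SDs. The fit was tested on simulated data.

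Genes named are all members, up to 4 per list with the largest difference among those that passed, and the 3 genes most like a member by r. Members, lists, comparisons and alternatives were chosen with earlier results of these data known. Alternatives changed the scaling, the background correction, the filter on dim probes, the choice of probe, the groups in the fit, the array weights and a block by replicate number, used the authors' table, or left out 1 array. The other Car4 probe was added as an alternative after seeing the data. Siglec1 has no entry in the promoter table used.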

Additional observations from a re-analysis of the deposited data

Results flagged for a closer look

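Among the lists, 2 genes had a DT effect that differed between the genotypes by the interaction test, while 2.11% of all genes passed it. The interaction also contains the slide difference between the ARF-DTR groups. With PBS, across slides, Klf4 was higher by 1.32 in ARF-DTR than in wild type lungs. For Klf4, a transcription factor of monocytes and macrophages, the DT effect in ARF-DTR minus that in wild type was -1.1 (95% interval -1.54 to -0.67, adjusted p = 0.019, limma). Its means were 4.03 with DT and 4.43 with PBS in ARF-DTR lungs, and 3.81 with DT and 3.10 with PBS in wild type lungs. For Ednrb, an aerocyte marker, the interaction was -0.9 (interval -1.26 to -0.54, adjusted p = 0.0196, limma). No member passed that test, and no member in any of the 30 sets of 4 arrays (10 members in 3 groups) had a value far from the other 3 by Dixon's 95% limit.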

How the results depend on the processing

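With DT against PBS in ARF-DTR lungs, the number of members passing (8) was 5 under quantile normalization, 9 (8 higher and Car4 lower) with the other probe of Car4, and 6 to 8 when any 1 array was left out. Against 2 months (7) it was 5 to 7 without 1 array, and 5 (quantile) to 9 (array weights, 8 higher and 1 lower) under the other settings. Without DT-treated lung 3, the 1 DT-treated ARF-DTR lung where Marco was high, each of these counts was 7, of which 6 were higher and 1, Marco, lower. By age (0) it was 0 in every fit without 1 array and 1 with the other probe of Car4. In wild type lungs (0) it was 0 under all settings that kept every array. Leaving out 1 array there left a group of 1, so those counts are not given. For the interaction (0) it was 1 with normexp background (Marco) and 0 to 1 without 1 array. For ARF-DTR against wild type with DT (0) it was 0 to 1. For DT-treated ARF-DTR against PBS-treated wild type (1) it was 2 with the replicate block, 4 with array weights, 2 with the other probe of Car4, and 0 to 1 without 1 array. For ARF-DTR against wild type with PBS (1, Car4) it was 0 under median scaling, with no filter on dim probes, with the mean of kept probes, with only the groups compared, with the replicate block and with the other probe of Car4, and 0 to 1 without 1 array. The other Car4 probe turned the sign by age (-0.25), against 2 months (-0.61), for ARF-DTR against wild type with PBS (-0.11), for DT-treated ARF-DTR against PBS-treated wild type (-0.47), and, where neither probe passed, for DT in wild type (-0.23) and ARF-DTR against wild type with DT (-0.24). Calling over all 25678 genes moved with the settings as well. Against 2 months 7878 genes passed in the main fit, 7283 under quantile normalization and 10557 with array weights. For DT against PBS in ARF-DTR lungs these numbers were 7503, 6323 and 9514. For DT-treated ARF-DTR against PBS-treated wild type lungs they were 1437, 1573 and 2668, and 954 with the replicate block. The cause of these changes was not tested.

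Deviations of same-numbered samples had r of -0.20 to 0.33 (26 pairs, median 0.06, 6 above 0.1). These values gave no clear sign that replicate numbers pair the samples, but low correlations cannot exclude a pairing. With the replicate block 7 members passed for DT against PBS in ARF-DTR lungs. The share of passing genes that were higher was 44.6% by age and 26.8% under median scaling, 46.2% and 30.8% for ARF-DTR against wild type with PBS (23.5% with normexp), 32.6% and 42.9% for DT in wild type, 40.2% and 60.7% for the interaction (81.1% with normexp), 38.3% and 63.7% for DT-treated ARF-DTR against PBS-treated wild type, and 48% and 65.6% for DT at 12 months against 2 months (68% with normexp). Median scaling moved the median of all genes to -0.12 by age and for ARF-DTR against wild type with PBS, and to 0.14 for the interaction. Groups of 2 arrays limit what the wild type comparisons can show.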

Other observations

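Further lists were read for DT against PBS in ARF-DTR lungs, where 29.2% of all genes passed in either direction and 15.7% as higher. Of 9 monocyte markers 1 passed as higher, the Fc receptor Fcgr4 (0.57), and 2 as lower, Nr4a1 (-0.87), a factor of patrolling monocytes, and Vcan (-0.46). Of 10 general capillary endothelial markers 2 passed as higher, Lpl (0.53) and Gpihbp1 (0.33), which anchors lipoprotein lipase. Of 8 alveolar type 1 markers 3 passed as higher (Pdpn, Ager and Aqp5, by 0.32 to 0.37), and of 4 lymphatic markers 2 did (Mmrn1 and Pdpn). Of 7 adipocyte markers, some of which Pparg drives in fat, 0 passed (limma), with a median of 0.04 (0.51 for DT in wild type, where 0 passed too). Of 4 genes tied to the design, Cdkn2b passed as lower (-0.29).

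By age, 4 of the 10 general capillary markers passed as lower, with the apelin receptor Aplnr the largest (-1.73). Over all genes 6.11% passed by age in either direction.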
